A study of Mus musculus with 38 samples.

Results

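The highest and the lowest dose of a botanical formulation, KAL-1, were compared in mice fed a fattening diet. Gene expression was measured in stromal vascular cells of epididymal fat, the cells that remain when adipocytes are removed, which the labels call infiltrating macrophages. The 12 arrays compared, of 38 in the series, are the 6 arrays titled HF75 and the 6 titled HF5. Members were chosen by title and source name, and each HF75 array was set against the HF5 array of its own week, at weeks 3, 6, 9, 12, 15 and 18 (W3 to W18). Every animal was a C57BL/6J mouse put on its diet after weaning, at 3 to 4 weeks of age. The study's methods count weeks from a day later than the start of feeding, so the time on the diet was longer than the week number. Both groups received the same diet, high in fat and sucrose, and differed in the amount of formulation, 75 µg for HF75 and 5 µg for HF5. The other arrays of these weeks came from mice on the same diet with 20 µg of formulation by source name (HF20), on the same diet alone (HFC) or on a low fat diet (LFC), and were used here as background.

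There was 1 array per dose and week, so the error of every difference below rests on the spread over weeks. The series design text speaks of biological replicates, though each dose and week has 1 array. The sources used here do not state whether the RNA of an array came from 1 animal or from several of the 5 animals of a group killed at each week. For this reason p-values measure only the spread between these arrays. The diet label of 2 HF5 arrays, W15 and W18, names the 20 µg dose, and that of the HF20 arrays of the same weeks names 5 µg. Source name and title were followed for all of them. As an alternative, the HF20 array was used in place of the HF5 array at these weeks.

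The stromal vascular fraction of fat holds macrophages, lymphocytes, mesenchymal progenitors, endothelial and mural cells and, in visceral fat, mesothelial cells from the covering of the depot. In obesity, monocytes are drawn into fat by chemokines such as CCL2, become macrophages and gather around dying adipocytes, where they secrete cytokines that lower the response of adipocytes to insulin. Resident macrophages instead carry scavenger receptors and make interleukin 10, a cytokine that restrains inflammation. The epididymal depot lies against the epididymis and near the seminal vesicle, the male ducts and glands that store sperm and secrete the proteins of semen. In bulk RNA, fewer cells of a type and less RNA per cell cannot be told apart.

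The level of a probe is the log2 of its processed signal minus the log2 of the 75th percentile of its array, so that 0 is the 75th percentile, and all differences are HF75 minus HF5 on this log2 scale. The dim arrays were HF75 W3, whose 75th percentile signal was 88.4 scanner units, and HF5 W12, at 25.8. The other 10 arrays lay between 458.5 and 1400 scanner units. Between 65.3% and 89.4% of their spots were well above background, against 46.3% on HF75 W3 and 40.1% on HF5 W12. HF75 arrays were brighter at 5 of 6 weeks, by a mean of 0.60 log2 (SD 2.94, n = 6 weeks). The exact two-sided sign-flip test gave p = 0.531, where 6 weeks allow no p under 0.03125. On HF75 W12, 14.3% of spots were marked as outliers and left out, 6257 spots, against 36 to 65 on the other HF75 and HF5 arrays. For this reason 3066 of the probes tested have no W12 value, and where a probe lacks a week this is stated. The lowest level well above background was -4.40 on HF75 W3 and -2.75 on HF5 W12, against -6.60 to -8.12 on the other 10, so low genes could not be followed on these 2 arrays. At the other end, levels on HF75 W12 stopped at 5.66, where spots were saturated.

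**Figure D1:**
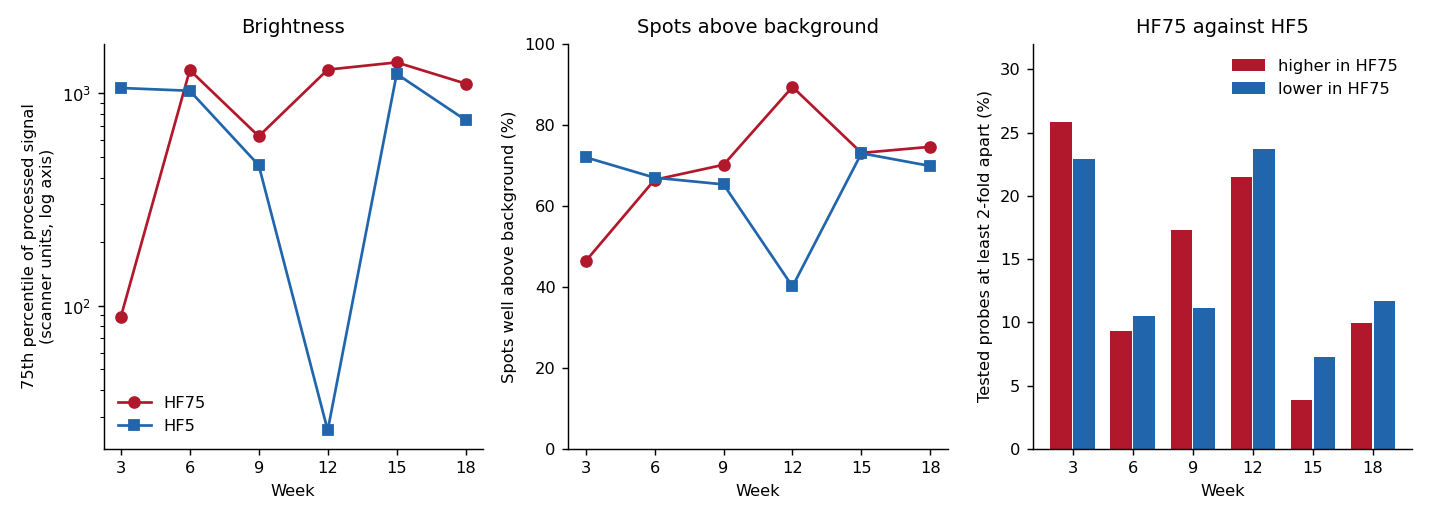
Signal and differences by week for HF75 and HF5: the 75th percentile of processed signal (scanner units, log axis), the percentage of spots well above background, and the percentage of tested probes at least 2-fold higher or lower in HF75. The dim arrays are HF75 at W3 (88.4 scanner units) and HF5 at W12 (25.8), and the percentage of probes 2-fold apart was highest at these weeks.

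The labelled cell type was checked against markers of macrophages. Adgre1, the F4/80 antigen, ranged from 1.69 to 3.16 on HF75 arrays and from 1.73 to 4.31 on HF5 arrays, so it stood above the 75th percentile of all 12. Lyz2, the lysozyme of myeloid cells, ranged from 5.66 to 7.15 (HF75) and from 6.05 to 7.40 (HF5) and was saturated on 8 arrays. Markers of other cells were also high. Fabp4, Gstm1, Dcn and Gsn, genes of adipocytes, detoxification and stromal cells, were saturated on 9 or 10 of the 12 arrays. The arrays therefore carried macrophage genes together with genes of adipose stroma and adipocytes.

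No gene differed between the doses past the threshold. Of 30741 probes tested, limma with Benjamini-Hochberg adjustment called 0 (0%), and the smallest adjusted p was 0.699. At an unadjusted p under 0.05 there were 2071 probes, 597 higher in HF75 (1.94%) and 1474 lower (4.79%). This balance differed between settings, with 256 higher and 221 lower among probes well above background on all 12 arrays. Among the 27573 probes with a value at every week, 639 (2.32%) were higher in HF75 at 6 of 6 weeks and 602 (2.18%) were lower. Every HF75 array exceeded every HF5 array at 16 probes (0.058%), and every HF75 array lay below every HF5 array at 9 (0.0326%). The median absolute difference was 0.31 log2, against a median SD of the weekly differences of 0.91. Leaving out W3 and W12, the weeks of the dim arrays, limma again called 0 of 30740 probes (smallest adjusted p 0.664), with 893 higher (2.91%) and 1314 lower (4.27%) at an unadjusted p under 0.05. Every difference named below therefore failed the correction, and is given as a measured value. The SE beside it is the moderated SE of the limma fit, which draws the spread of a probe toward that of all probes tested.

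The distance between the doses varied by week far more than the mean difference did. At W3, 25.8% of tested probes were at least 2-fold higher in HF75 and 22.9% at least 2-fold lower, and at W12 21.5% were higher and 23.7% lower. At W15 the figures were 3.85% and 7.24%. W6 had 9.29% higher and 10.5% lower, W9 had 17.3% and 11.1%, and W18 had 9.96% and 11.7%. The weeks of the dim arrays thus held the most probes 2-fold apart, 14983 at W3 and 12528 at W12, and W15 the fewest, 3407. The near balance of directions at W3 and W12 did not hold among probes well above background on both arrays. Of 18958 such probes at W3, 6008 were at least 2-fold higher in HF75 and 2303 lower. Of 14971 at W12, 2264 were higher and 3903 lower. Against the intermediate dose, HF20 and HF5 were 2-fold apart at 4136, 4505, 4505, 15510, 5214 and 5806 probes at W3 to W18 in order, and HF75 and HF20 at 15069, 3353, 8049, 11120, 5838 and 6021. At W3 the count was high for the pairs that held HF75, and at W12 for all 3 pairs. The brightest probes had opposite signs at these weeks. The 614 probes of highest mean level had a median difference of 2.26 at W3, where 552 of them were saturated on HF5 and 48 on HF75, and of -1.51 at W12, where 412 were saturated on HF75 and 0 on HF5. At the other weeks their median lay between -0.20 and -0.47.

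Among the probes of smallest p that were higher in HF75, the leading gene was Pon1, which encodes paraoxonase, an esterase of high density lipoprotein that acts on oxidised lipids. Its level was lowest at -4.85, with a median of -4.36 and a highest value of -0.52, on HF75 arrays, and -8.09, -6.09 and -2.61 on HF5 arrays. It was higher in HF75 at 6 of 6 weeks, by 2.32 (SE 0.40, n = 6), but the ranges overlapped, and it was well above background on 5 HF75 arrays and 1 HF5 array. Slc15a2, a transporter of small peptides, had the clearest signal of this group. Its lowest, median and highest levels were -3.06, 0.51 and 2.95 in HF75 and -4.45, -1.77 and 1.90 in HF5. The difference was 1.78 (SE 0.32), positive at 6 of 6 weeks, and the 4 probes of the gene gave 0.61 to 1.78. B3galt2, a galactosyltransferase of protein glycans, differed by 2.39 (SE 0.49, 6 of 6 weeks), with levels of -5.44, -4.10 and -0.20 in HF75 and -8.29, -5.54 and -3.57 in HF5. The ranges of these 3 genes overlapped between the doses, since levels ranged more widely over weeks than the doses lay apart. Bmf, which encodes a pro-apoptotic member of the BCL2 family, was higher at 5 of 6 weeks by 1.52 (SE 0.37), while its 3 probes ran from 0.14 to 1.52. The rest of the group lacked W12. Gpr17, a receptor known from oligodendrocyte precursors, differed by 1.37 (SE 0.30). Rpl26-ps2, a pseudogene whose probe may share signal with the ribosomal gene it copies, differed by 1.58 (SE 0.35). Cep20, a centrosomal protein, and Gm7773 were well above background on no HF5 array, so only an approximate bound could be given, 1.64-fold and 1.38-fold higher in HF75. The adjusted p from limma was 0.699 for all 8.

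Several of the genes of smallest p that were lower in HF75 belong to spermatids and sperm. Sun5, which anchors the sperm head to its tail, was well above background on no HF75 array and on 4 HF5 arrays. Its levels were -9.31, -8.41 and -5.64 (lowest, median, highest) over 5 HF75 arrays and -6.63, -3.54 and -2.83 on HF5 arrays. The approximate bound, not paired by week, was 5.85-fold lower in HF75. The measured difference was -3.46 (SE 0.54, n = 5 weeks, without W12), negative at each of those weeks. Actl7b, an actin-like protein of spermatids, was lower at 6 of 6 weeks by 2.77 (SE 0.50), with levels of -8.39, -6.29 and -2.22 in HF75 and -7.81, -2.71 and 0.48 in HF5. Fank1, a testis gene, had a small difference of -1.31 (SE 0.24) that varied little between weeks, from -0.98 to -1.79, though its other probe gave 0.30. Thegl, related to a spermatid protein, differed by -1.68 (SE 0.31). Outside the germ line, Dot1l, a histone methyltransferase, was lower at 6 of 6 weeks by 1.57 (SE 0.28), but its 3 probes ran from -1.57 to -0.29. Lrrc8b, a subunit of volume-regulated anion channels, differed by -2.06 (SE 0.37, without W12). Mospd4 differed by -2.46 (SE 0.42), with levels of -7.49, -5.19 and -4.65 in HF75 and -5.19, -2.97 and -1.50 in HF5. Gml was well above background on no HF75 array, with an approximate bound of 2.18-fold lower there. These 8 also had an adjusted p of 0.699 by limma.

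**Figure D2:**
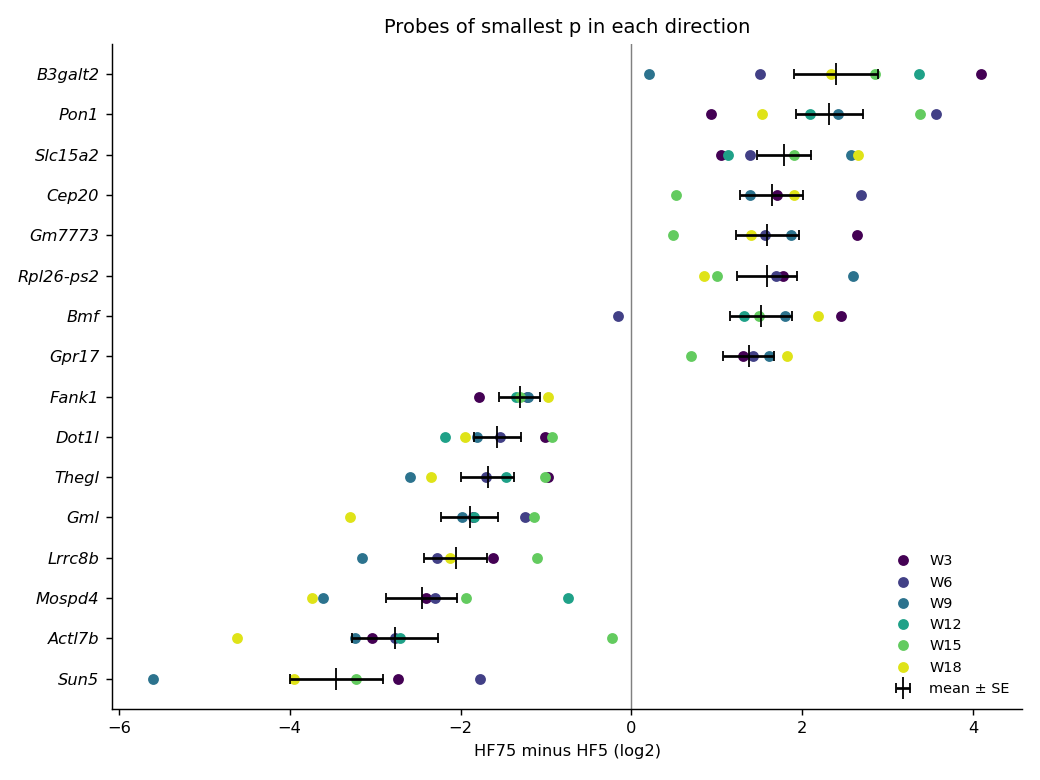
Difference HF75 minus HF5 (log2) of the 8 probes of smallest p in each direction, with a point per week and the mean ± SE of the limma fit. The means run from 2.39 for B3galt2 to -3.46 for Sun5, and none passed the threshold after adjustment.

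Since low probes could not be followed on the dim arrays, genes well above background on all 12 arrays were also taken. Of 13127 such probes, 330 (2.51%) were higher in HF75 at 6 of 6 weeks and 153 (1.17%) lower. The largest positive differences were those of Ces1f, a carboxylesterase (1.66, SE 0.59), Dmrt2, a transcription factor (1.38, SE 0.47), Gnai1, an inhibitory G protein subunit (1.22, SE 0.44), Sort1, the sorting receptor sortilin (1.14, SE 0.37), Laptm4b, a lysosomal membrane protein (1.05, SE 0.36), and Klf15, a metabolic transcription factor (1.03, SE 0.38). W12 weighed heavily in the leading 3. Ces1f was 5.07 apart at W12 and 1.13 apart on average at W6, W9, W15 and W18, Dmrt2 was 3.92 apart at W12, and Gnai1 was 3.56 apart there. The largest negative differences were of 2 kinds. Pdpk1, the kinase that activates AKT, and Trim55, a protein of the muscle sarcomere, had mean differences of -2.85 (SE 1.17) and -2.84 (SE 1.19), but their weekly values were -7.67 and -7.83 at W3 and -7.39 and -7.40 at W12. Pdpk1 lay between -0.32 and -0.75 at the other weeks, its 3 probes ran from -2.85 to -0.18, and both probes were saturated on 6 arrays. Gm10222 was similar, with -2.19 (SE 0.77), -6.90 at W12 and saturation on 4 arrays. The other kind was again of the germ line. H2al2a, a histone variant of spermatids, differed by -2.24 (SE 0.89), and Iqcf1, a sperm protein, by -2.19 (SE 0.65). Prr30 differed by -2.66 (SE 0.65), with levels of -4.98, -3.0 and -0.29 in HF75 and -3.81, 1.25 and 1.79 in HF5.

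The gene list that lay farthest from 0 was that of spermatids and sperm. All 18 members were lower in HF75, with a median difference of -2.84, against 0.059 over all probes tested. Of these, 15 had an unadjusted p under 0.05 in that direction, where 4.79% of all probes did, and 6 were lower at 6 of 6 weeks, where 2.18% of probes with every week were. Only 2 of the 18 were well above background on all 12 arrays, and a probe well above background on 3 of 6 arrays of a single dose could enter the test. Some members were already known to be high on HF5 arrays when the list was chosen, so the counts describe these arrays and are no independent evidence. Prm1 and Prm2 encode the protamines that pack sperm DNA. Prm1 had lowest, median and highest levels of -4.40, 0.18 and 3.09 in HF75 and of -1.07, 2.97 and 7.14 in HF5. Its difference was -3.14 (SE 0.95), negative at 5 of 6 weeks, and the 3 probes gave -3.25 to -3.07. Prm2 had levels of -5.84, 0.15 and 3.04 in HF75 and of -0.76, 2.21 and 6.79 in HF5, a difference of -3.29 (SE 0.96). Tnp1, the transition protein that precedes protamine, had levels of -5.40, -2.20 and 0.38 in HF75 and -3.65, 1.16 and 5.21 in HF5, a difference of -3.28 (SE 1.12). The exception to the sign was W12 for these 3 genes. The ranges of the doses overlapped in each case. The list also held Hils1, a linker histone of spermatids (-3.43, SE 1.14), Tssk1, a testis kinase (-1.57, SE 0.53), Tnp2 (-3.04, SE 0.82), Gapdhs, a glycolytic enzyme of sperm (-3.03), and Oaz3, an antizyme of spermatids (-3.0, SE 0.63, without W12).

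The sperm genes differed mostly at W9 and W18. The median difference of the list was -1.91 at W3, -1.63 at W6, -5.52 at W9, 0.07 at W12, -0.49 at W15 and -5.99 at W18. At W9 the 18 members lay between -3.19 and -7.20 and at W18 between -2.50 and -7.78, while W12 and W15 had list medians within 0.49 of 0. The mean level of the list on HF5 arrays was -0.01, -4.79, 1.39, -2.36, -5.13 and 1.51 at W3 to W18 in order, and on HF75 arrays -1.88, -7.01, -3.70, -2.70, -5.65 and -4.04. HF5 W18 had the highest mean level of all 30 arrays of these weeks, whose median was -3.73. Its diet label names the 20 µg dose. HF20 W18, whose diet label names 5 µg, stood at -4.16, near HF75 W18. With HF20 as the low dose at W15 and W18, 11 of 18 members had an unadjusted p under 0.05 and were lower. In that setting 4.14% of all probes were. HF5 W9 ranked 3, beside HF20 W9 at 1.47. Leaving out W9 and W18, chosen after the values were seen, all 18 were still lower, with a median of -1.42, but 3 had an unadjusted p under 0.05, where 2.78% of all probes did. At W9, W12 and W15, when both arrays of a pair were scanned on the same day, the median was -1.89, and 3 of the 17 members tested had an unadjusted p under 0.05 and were lower, where 2.16% of all probes were. Of 19 genes secreted by the epididymis, 9 were higher in HF75 and 10 lower, with a median of -0.42. Without W3 and W12, 16 of 19 were lower, with a median of -0.75, and over W9, W12 and W15 the median was -1.80. No member was well above background on all 12 arrays. The weekly medians were -0.42, 0.00, -1.81, 0.32, -3.27 and 1.42. Cst8 and Cst11, cystatins of the proximal epididymis, had the largest negative values, -5.22 (SE 1.12) and -3.13 (SE 1.18). Cst8 levels were -8.44, -7.02 and -3.49 in HF75 and -6.43, -0.48 and 4.09 in HF5, and it was well above background on 2 HF75 and 4 HF5 arrays. Defb21, a defensin of the epididymis, differed by -2.19 (SE 0.86). Crisp1, a secreted protein that coats sperm, differed by 0.18, with levels up to 8.88 at W3 in HF75 and 5.05 at W3 in HF5. Lcn5, a lipocalin, differed by -1.73 and Adam7 by 0.51. Of the seminal vesicle list 3 of 11 genes were tested, with weekly medians of 3.25, -0.09, 2.98, -2.15, -1.04 and -8.83. Svs5, a protein of the semen clot, was at 6.49 on HF5 W18 and at -2.59 on HF75 W18, but at 3.24 on HF75 W9 and -5.71 on HF5 W9, so its mean difference was -0.09 (SE 2.40, without W12). The mean level of the list on HFC W18 was 5.71, near the 5.43 of HF5 W18. The part of duct and gland RNA in the other differences was not tested.

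**Figure D3:**
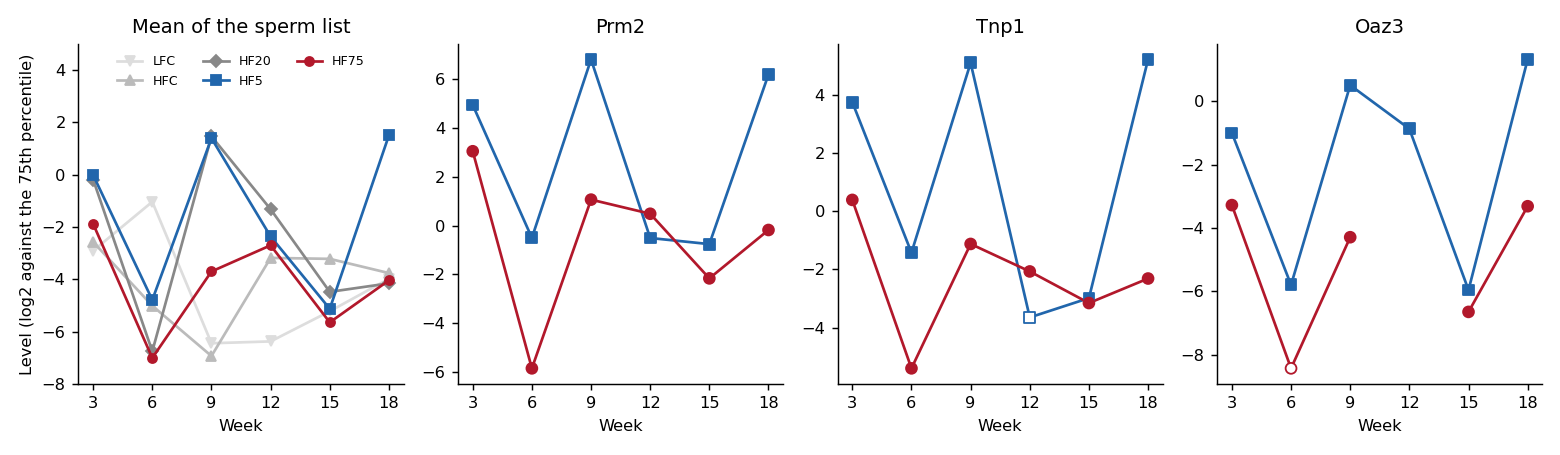
Levels (log2 from the 75th percentile of the array) by week of the mean of the sperm gene list on the arrays of 5 diets and of Prm2, Tnp1 and Oaz3 for HF75 and HF5, with open symbols where a probe was not well above background and no HF75 value of Oaz3 at W12. HF5 stands at 1.39 at W9 and 1.51 at W18 in list mean, where HF75 stands at -3.70 and -4.04, and the doses lie close together at W12 and W15. The diet label of HF5 W18 names the 20 µg dose and that of HF20 W18 names 5 µg. HF20 stands at -4.16 at W18 and 1.47 at W9.

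Macrophage genes were lower in HF75 by a small amount that lay within the spread over weeks. Of 22 members of the list, 21 were lower, with a median of -0.38, and 1 had an unadjusted p under 0.05, where 4.79% of all probes had it. That count was 5 without W12, where 5% of all probes had it, and 2 without W3. It was 0 without W6, without W9, without W15 and without W18. Csf1r, the receptor of macrophage colony stimulating factor, had lowest, median and highest levels of -0.92, 1.56 and 2.37 in HF75 and of 0.28, 1.55 and 3.31 in HF5, a difference of -0.39 (SE 0.47). Adgre1 differed by -0.13 (SE 0.35), Cd68, a lysosomal protein of macrophages, by -0.34 (SE 0.43), Itgam, an integrin of myeloid cells, by -0.22 (SE 0.36), and Mpeg1, a pore-forming protein of macrophages, by -0.56 (SE 0.29). The medians of both doses were nearly the same for these genes, and the ranges overlapped. Lyz2 (-0.39, SE 0.25) and Aif1, the macrophage protein IBA1 (-0.70, SE 0.30), were lower at 6 of 6 weeks, though the other probe of Aif1 gave 0.43. Laptm5, a lysosomal protein of blood cells, had the largest negative difference, -1.01 (SE 0.59), and Tyrobp, an adaptor of myeloid receptors, the largest positive, 0.06. The weekly medians were -1.31, -0.70, -0.94, 0.98, 0.16 and -0.77, so the sign was positive at W12 and W15. Over W6, W9, W15 and W18 all 22 were lower, with a median of -0.49, whereas over the weeks scanned on the same day, W9, W12 and W15, the median was 0.16. The mean level of the list was highest of the 30 arrays on HF5 W9, at 3.57.

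Chemokines and other inflammatory genes made a similar pattern with larger values. Of 19 tested members, 18 were lower in HF75, with a median of -0.57. Of the 19, 6 were well above background on all 12 arrays. An unadjusted p under 0.05 was found for 5 in that direction, where 4.79% of all probes had it, and 2 were lower at 6 of 6 weeks, where 2.18% of probes with every week were. Ccl7, a chemokine that draws monocytes, was the largest of these. It had lowest, median and highest levels of -0.53, 2.37 and 4.10 in HF75 and of 1.77, 3.76 and 4.31 in HF5, and was lower at 6 of 6 weeks by 1.44 (SE 0.37). Ccl2, the principal monocyte chemokine of fat, had levels of 1.45, 4.13 and 5.85 in HF75 and of 2.73, 5.09 and 6.08 in HF5, a difference of -1.07 (SE 0.36), negative at 5 of 6 weeks. Ptgs2, the inducible cyclooxygenase, had levels of -3.63, -0.46 and 0.49 in HF75 and of -2.65, 0.83 and 1.10 in HF5, a difference of -0.94 (SE 0.27), negative at 6 of 6. The doses overlapped in all 3, and in both doses the lowest level of each was at W12. Cd80 and Cd86, the co-stimulatory ligands of T cells, differed by -1.0 (SE 0.32) and -1.0 (SE 0.42), both without W12. Tnf differed by -1.22 (SE 0.59), Itgax, the CD11c antigen of inflammatory macrophages, by -0.85 (SE 0.41), Ccl4 by -0.57 (SE 0.46), Il6 by -0.51 and Il1b by -0.46. Il12b was the exception at 0.85 (SE 0.37), with a probe well above background on 4 HF75 and 3 HF5 arrays. The weekly medians of the list were -1.34, -1.59, -0.23, -0.05, 0.11 and -0.60, so the list was near 0 at W12 and W15. Normexp background correction left 0 members with an unadjusted p under 0.05.

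Genes of alternative activation and of resident macrophages were lower as well, 16 of 18, with a median of -0.35. Of these, 2 had an unadjusted p under 0.05, where 4.79% of all probes did, and 2 were lower at 6 of 6 weeks, where 2.18% did so. Il10, the cytokine that restrains inflammation, had levels of -4.99, -2.32 and -0.69 in HF75 and of -3.91, -1.19 and 1.13 in HF5, and was lower at 6 of 6 weeks by 1.12 (SE 0.28). Il1rn, the antagonist of the interleukin 1 receptor, was also lower at 6 of 6, by 1.04 (SE 0.41). Inflammatory genes and these restraining genes thus had the same sign. Retnla differed by -0.23, the lectins Clec10a and Mrc1 by -0.41 and -0.47, and the hyaluronan receptor Lyve1 by 0.41. The list of macrophages that take up lipid had a median of -0.00, with 8 of 17 higher. In it, Trem2, the lipid receptor of these cells, differed by -0.36, Spp1, osteopontin, by -0.39, the lysosomal lipase Lipa by -0.63 and the cathepsins Ctsb and Ctsl by -0.00 and 0.42. Under normexp background correction, and over W9, W12 and W15 alone, the medians of the macrophage and alternative activation lists were at or above 0.

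**Figure D4:**
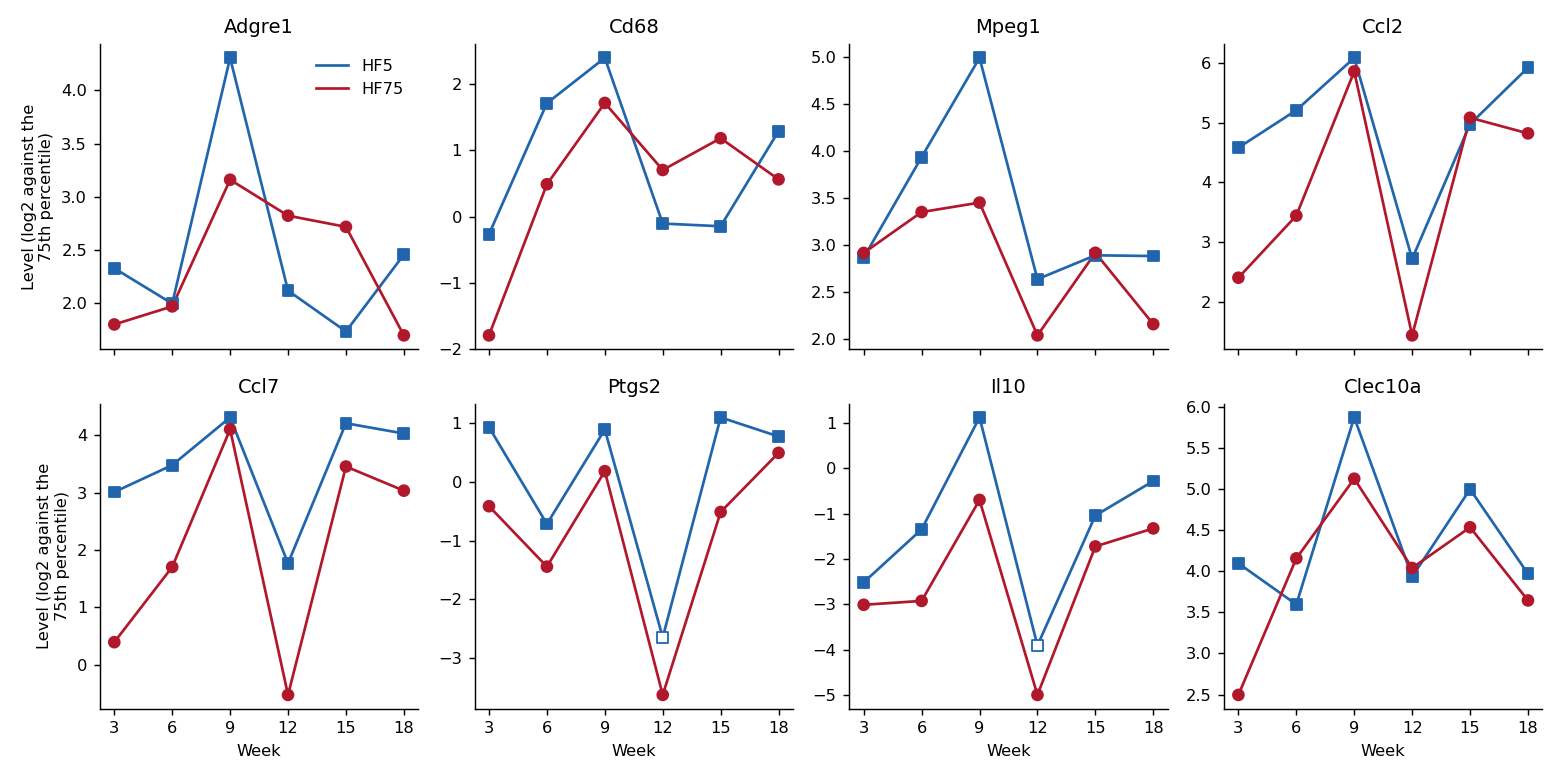
Levels (log2 from the 75th percentile of the array) by week of Adgre1, Cd68, Mpeg1, Ccl2, Ccl7, Ptgs2, Il10 and Clec10a for HF75 and HF5, with open symbols where the probe was not well above background. Ccl7, Ptgs2 and Il10 are lower in HF75 at each week, by means of 1.44, 0.94 and 1.12, while Adgre1 and Cd68 cross.

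Lymphocyte genes were lower in HF75 on balance. Of 17 tested T cell and cytotoxic lymphocyte genes, 16 were lower, with a median of -0.66, and 1 had an unadjusted p under 0.05, where 4.79% of all probes had it. That count was 7 without W12 (5% of all probes) and 5 without W3 and W12 (4.27%). It was 0 without W3, without W6, without W9, and over W9, W12 and W15. No member was well above background on all 12 arrays. Zap70, a kinase of the T cell receptor, had levels of -4.79, -1.43 and -0.84 in HF75 and of -2.03, -1.44 and 1.04 in HF5, a difference of -1.08 (SE 0.44). Nkg7, a protein of cytotoxic granules, differed by -0.51, the receptor chains Cd3e and Cd3g by -0.03 and -0.82, and Lck by -0.37, and Cd4 had the largest positive difference, 0.14. The weekly medians were -1.05, -1.55, -1.41, 1.27, -0.38 and -0.00. Of 10 B cell genes, 9 were lower, with a median of -0.62 and 2 at an unadjusted p under 0.05 (4.79% of all probes), among them Bank1, a signalling scaffold (-0.84, SE 0.33, without W12). Neither kept that p under quantile normalisation, in the deposited table, or without W6, W9 or W18. Cd79a, a chain of the B cell receptor, differed by 0.38 and Ms4a1, the CD20 antigen, by -0.71. The antigen presentation list was closer to 0, with a median of -0.07 and 8 of 13 lower, but without W3 and W12 the median was -0.35 with 11 of 13 lower. Its most abundant members, Cd74 and H2-Ab1 of the class II pathway, differed by 0.00, with Cd74 saturated on 10 arrays, and by -0.07. H2-DMb1, which loads class II molecules with peptide, differed by -0.98 (SE 0.36), and Ccr7, a homing receptor of dendritic cells, by -0.67 (SE 0.29), both with an unadjusted p under 0.05 (4.79% of all probes). Neutrophil and mast cell genes were split, 7 higher and 7 lower, with a median of -0.14, and 0.16 without W3 and W12. Csf3r, the receptor of a granulocyte growth factor, differed by -0.96 (SE 0.35), Mpo, myeloperoxidase, by -1.53 (SE 0.61, without W12), S100a9 by -1.52 (SE 0.76), and Kit, the receptor of mast cells, by 0.42.

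Adipocyte genes were on balance higher in HF75, and W12 and W15 had the highest values. Of 20 members 17 were higher, with a median of 0.42, 2 with an unadjusted p under 0.05, where 1.94% of all probes had it, and 0 higher at 6 of 6 weeks. Neither kept that p without W12 or without W18. The weekly medians were -0.52, -0.22, 0.26, 1.36, 1.52 and -0.41, and 13 members were saturated on some array. The 2 members were Acsl1, which activates fatty acids, and Dgat2, which completes triglycerides. Acsl1 had levels of 1.66, 3.29 and 5.66 in HF75 and 0.61, 3.02 and 4.53 in HF5, a difference of 0.81 (SE 0.29, without W9). Dgat2 had levels of 0.46, 3.27 and 5.66 in HF75 and 0.67, 2.18 and 4.67 in HF5, a difference of 0.85 (SE 0.33). Both stood at the saturation limit of 5.66 on HF75 W12. The mean level of the adipocyte list was 5.00 on that array. It was similar on LFC W9 (4.93), HFC W9 (4.85) and LFC W12 (4.84), which had no formulation, and 1.68 on HFC W12. Adipoq, adiponectin, differed by 0.45 (SE 0.50), Plin1, which coats lipid droplets, by 0.40, Cidec, another droplet protein, by -0.09, Lep, leptin, by 0.84 (SE 1.04), Retn, resistin, by 1.34 (SE 0.76), and Fabp4 by -0.70. Of 13 lipogenesis genes 12 were higher, with a median of 0.48, 1.76 at W12 and 0.28 without W3 and W12. Fasn, fatty acid synthase, differed by 0.39, Srebf1, its regulator, by 0.48, Agpat2, of triglyceride synthesis, by 0.74, and Acly by -0.43.

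Of 16 cholesterol synthesis genes 13 were higher, with a median of 0.17. Fdps, which makes the farnesyl precursor of cholesterol, had levels of -0.55, 0.70 and 2.20 in HF75 and -1.06, -0.24 and 0.65 in HF5 and differed by 0.84 (SE 0.35). Fatty acid oxidation and PPAR target genes had a median of 0.00, yet 2 of 15 were higher at 6 of 6 weeks (2.32% of all probes) with an unadjusted p under 0.05 (1.94%). Neither kept that p without W3 or without W12. Among them Ehhadh, an enzyme of peroxisomal oxidation, had levels of -2.88, -2.43 and 0.45 in HF75 and -3.67, -3.13 and -2.71 in HF5, a difference of 1.30 (SE 0.50). The mitochondrial members Cpt1b and Acaa2 differed by -0.87 and 0.17, and Angptl4, a PPAR target, by -0.29. Insulin and glucose genes had a median of -0.40, with 12 of 16 lower and 2 at an unadjusted p under 0.05 (4.79% of all probes) that were lower at 6 of 6 weeks (2.18%). These were Ptpn1, the phosphatase that turns off the insulin receptor (2.65, 3.29 and 3.67 in HF75, 3.60, 3.85 and 4.49 in HF5, difference -0.74, SE 0.24), and Irs2, an adaptor of that receptor (-0.75, 2.72 and 4.17 in HF75, 3.46, 4.31 and 4.39 in HF5, difference -1.63, SE 0.64). The other probe of Ptpn1 gave -0.16. The receptor itself, Insr, differed by 0.50 and Socs3, a feedback inhibitor, by -0.90. Without W3 and W12 the median of the list was -0.06.

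Genes of brown fat and skeletal muscle were higher on HF5 W12 than on the other HF75 and HF5 arrays. The mean level of the muscle list was 3.99 there, 1.01 on HF75 W6 and 0.86 on HF5 W6, and between -1.43 and -3.27 on the other arrays of both doses, while LFC W6 stood at 4.65. The brown fat list stood at 4.22 on HF5 W12, at -0.15 on HF75 W12 and between -0.92 and -1.85 on the other 10. Ucp1, the uncoupling protein of brown fat, was at 6.93 on HF5 W12 and between -3.73 and -5.85 on the other HF5 arrays, which gave a mean difference of -2.21 (SE 1.27), and -0.37 without W3 and W12. Cidea and Cox7a1, also of brown fat, were at 7.60 and 7.0 on HF5 W12. The brown fat list had a median of -5.76 at W12, -0.56 over 6 weeks with 7 of 7 lower, and -0.01 without W3 and W12. The muscle list behaved in the same way. Its median was -6.77 at W12, -1.07 over 6 weeks with 13 of 15 lower, and 0.02 without W3 and W12. Myh4, a fast myosin, differed by -2.46 (SE 0.96), Tnnc2, a fast troponin, by -1.60, Ckm, muscle creatine kinase, by -1.54, and Acta1, skeletal actin, by -0.14. The mean differences of both lists thus rested on W12, the week of the dim HF5 array, and no member passed the threshold after adjustment.

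The lists of structural cells of fat had medians between -0.34 and 0.01. Stromal progenitor genes had a median of 0.01, with 9 of 15 higher. Pdgfra, the receptor that marks progenitors, differed by -0.06, the matrix protein Lum by 0.14 and Pi16 by 0.01. Thy1, a surface glycoprotein of stromal cells, was lower at 6 of 6 weeks, by 0.72 (SE 0.26), with levels of 2.15, 3.17 and 4.19 in HF75 and 3.31, 3.62 and 5.00 in HF5, and both of its probes gave -0.72 and -0.74. Dcn, decorin, was lower at 6 of 6 by 0.50 but saturated on 10 arrays. Of 20 extracellular matrix genes 16 were lower, with a median of -0.15, but without W3 and W12 the median was 0.07 with 11 of 20 higher. Col1a2, a collagen of fibrous matrix, differed by -0.10 and Timp2, a protease inhibitor, by -0.97. Of 15 endothelial genes 14 were lower, with a median of -0.34 and 0 at an unadjusted p under 0.05. Pecam1 differed by -0.34, Cdh5 by -0.52 and Kdr by -0.74, and over W6, W9, W15 and W18 the median was 0.14. Mural genes had a median of -0.30, with 8 of 11 lower, but of 0.21 without W12 and -0.04 without W3 and W12. Rgs5, a pericyte gene, differed by -0.95 and Acta2, smooth muscle actin, by -0.58. Red cell genes were lower in 5 of 5 tested members, with a median of -0.56, and Hba-a1, a globin, differed by -0.57 and Alas2, of heme synthesis, by -0.56. Hemgn was well above background on no HF75 array, with an approximate bound of 2.45-fold lower there.

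Mesothelial genes were higher in HF75 as a list, with large swings between weeks. Of 14 members 13 were higher, with a median of 0.63, the largest positive median of the 34 lists, and 2 had an unadjusted p under 0.05, where 1.94% of all probes had it. Neither kept that p without W6 or under quantile normalisation. Both encode keratins of simple epithelia. Krt8 had levels of -0.94, 5.16 and 7.81 in HF75 and of -4.75, 4.46 and 5.83 in HF5, a difference of 2.17 (SE 0.75), positive at 5 of 6 weeks. Its partner Krt18 had levels of 0.49, 5.47 and 7.98 in HF75 and -1.75, 5.09 and 6.13 in HF5, a difference of 1.30 (SE 0.45). Msln, mesothelin, differed by 0.75 (SE 0.82), positive at 3 of 6 weeks, Upk3b by 1.03 and Wt1 by 0.33. The weekly medians were -1.55, 2.14, 0.06, 3.24, -0.49 and 0.73. The mean level of the list was -4.25 on HF5 W6 and -2.57 on HF5 W12, against 1.0 to 1.58 on the other HF5 arrays, and these were the weeks of the large positive medians. At W6 the list was also low on HFC (-4.04), HF20 (-4.47) and HF75 (-2.11), while LFC stood at 0.29. At W12 the arrays other than HF5 lay between -0.56 and 1.62.

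Lists of stress and defence genes had medians between 0.05 and 0.30, against 0.059 over all probes. For antioxidant and NRF2 target genes the median was 0.05, with 12 of 20 higher. Cat, catalase, was higher at 6 of 6 weeks by 0.63, Gpx3, a secreted peroxidase, differed by 0.90 (SE 0.47), Nqo1 and Hmox1, NRF2 targets, by 0.62 and -0.12, and Sod1 by 0.10. Xenobiotic response genes had a median of 0.30, with 12 of 15 higher, and the weekly median was positive at 6 of 6 weeks, between 0.16 and 0.74. Ephx1, which opens epoxides, was higher at 6 of 6 by 0.58 (SE 0.26), and Cyp1a1, the main target of the aryl hydrocarbon receptor, differed by 1.03 (SE 0.47). Cyp2e1, a cytochrome of ethanol metabolism, differed by 1.73 (SE 0.84). Nr1i3, a nuclear receptor of drug metabolism, was the exception, with levels of -4.71, 0.55 and 5.74 in HF75 and 1.32, 3.42 and 7.50 in HF5, a difference of -3.05 (SE 1.24), and -0.84 without W3 and W12. Without those weeks the median of the xenobiotic list was -0.03. Unfolded protein genes had a median of 0.13 (10 of 15 higher), with the chaperone Hspa5 at -0.00 and Asns, of asparagine synthesis, at 0.70. Heat shock genes had a median of 0.06 (6 of 11 higher), with Hspa1a at -0.56, Hspa8 at 0.06, and Dnaja1, a co-chaperone, higher at 6 of 6 weeks by 0.44. Respiratory chain genes had a median of 0.11 (15 of 19 higher), and 1.29 at W3, with Cox4i1 at 0.43 and Cox5a at -0.19.

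Immediate early genes, which respond within minutes to growth factors and handling, were lower in 16 of 16 members, with a median of -0.52. W12 had a median of -2.84, and without W3 and W12 the median was -0.04. The mean level of the list was 1.53 on HF75 W12. It was lower still on LFC W9 (0.03), HFC W9 (0.36) and LFC W12 (0.12), which had no formulation, and 4.39 on HFC W12. Klf4, a transcription factor of this list, was lower at 6 of 6 weeks by 1.20 (SE 0.51), with levels of 2.20, 5.65 and 6.20 in HF75 and 5.82, 5.94 and 6.91 in HF5. Nr4a2 differed by -1.76 (SE 0.77), Junb by -0.55 and Nr4a1 by -0.57. Interferon stimulated genes had a median of -0.23, with 12 of 16 lower, and of 0.05 without W3 and W12, with 9 of 16 higher. Mx1, an antiviral GTPase, had levels of -5.64, -3.81 and -0.82 in HF75 and -3.46, -1.51 and 0.84 in HF5 and differed by -1.84 (SE 0.64), while Gbp2, an interferon-induced GTPase, differed by 0.84 (SE 0.38). Genes of dividing cells were lower in 14 of 20 members, with a median of -0.35, 2 of them at 6 of 6 weeks (2.18% of all probes) with an unadjusted p under 0.05 (4.79%). Plk1, a mitotic kinase, had levels of -2.56, -2.27 and -1.23 in HF75 and -2.07, -1.07 and 0.35 in HF5, a difference of -0.95 (SE 0.30). Birc5, survivin, had levels of -1.0, 0.08 and 0.66 in HF75 and -0.06, 0.68 and 1.75 in HF5, a difference of -0.71 (SE 0.27). Mki67, the Ki-67 antigen, differed by -1.02 (SE 0.67) and Pcna, the replication clamp, by 0.14. Without W3 and W12, 18 of 20 were lower, with a median of -0.48, and 8 had an unadjusted p under 0.05, where 4.27% of all probes had it in that direction. That count was 7 for the same weeks under quantile normalisation, and 2 without W3 alone or without W12 alone. It was 0 without W15 and W18, without W9 and W18, and over W9, W12 and W15. Of the 20, 6 were well above background on all 12 arrays. Ribosomal protein genes had a median of -0.05, with 1.90 at W3 and -1.09 at W12, and 17 of 21 were saturated on some array. Genes used as loading references had a median of -0.01, with Gapdh at -0.25, B2m at 0.38 and Ywhaz at -1.42 (SE 0.86).

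**Figure D5:**
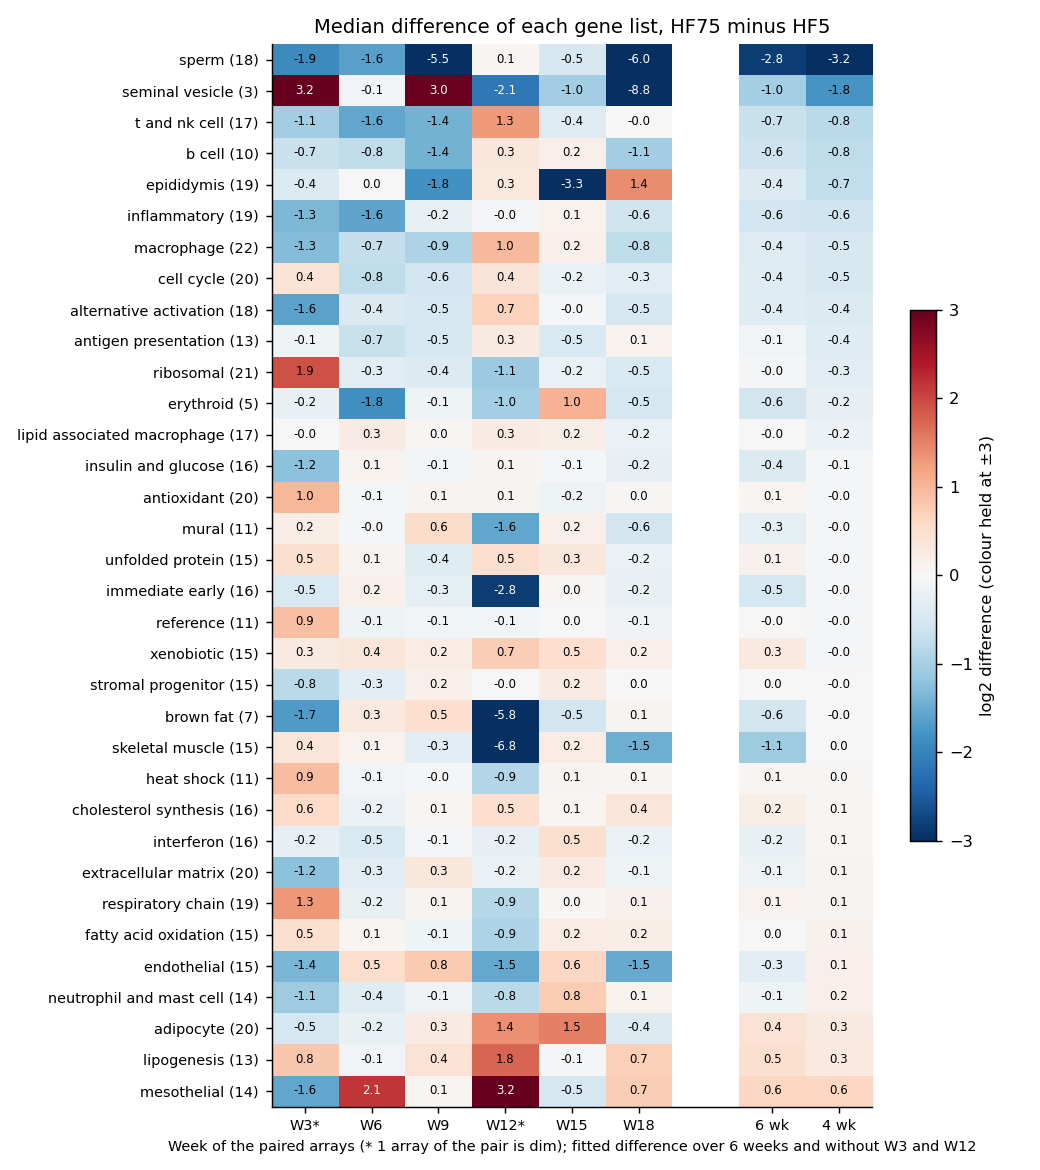
Median difference HF75 minus HF5 (log2) of each of the 34 gene lists at each week, over all 6 weeks and over W6, W9, W15 and W18, with the colour held at 3 log2. The sperm list is lowest over 6 weeks (-2.84), and the muscle and brown fat lists have their lowest medians at W12 (-6.77 and -5.76).

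The difference between the doses was also followed over the course, by its slope on week. Limma called 0 of 30741 probes (0%), with a smallest adjusted p of 1.0, and 690 had an unadjusted p under 0.05, 427 rising (1.39%) and 263 falling (0.856%). Among the leading probes with a falling slope, Ceacam10, of the seminal vesicle, differed by 4.54, 3.02, -0.49, -1.80, -4.73 and -4.19 at W3 to W18, a slope of -0.65 per week (SE 0.08). Spinkl, a protease inhibitor, differed by 5.04, -0.61, 0.64, -1.20, -4.97 and -6.57, a slope of -0.70 (SE 0.10). Both were higher in HF75 at W3, the week of its dim array, and lower at W12, W15 and W18. Elf5, an epithelial transcription factor, had a slope of -0.75 (SE 0.12), Defa20, a defensin, of -0.38 (SE 0.06), and Fgf4, a growth factor, of -0.36 (SE 0.07), all 3 without W12, and Slco1a5, an organic anion transporter, had -0.49 (SE 0.10). Dcaf12l2 had -0.26 (SE 0.05), and Zfy2, also among them, was well above background on no HF75 array. On the rising side, Gsc, a homeobox factor, differed by -2.69, -1.93, -1.04, -0.85, 0.53 and 1.21, a slope of 0.26 (SE 0.05). Spink5, a protease inhibitor of epithelia, had 0.37 (SE 0.08), Osr1, a factor of mesenchymal progenitors, 0.32 (SE 0.07), Clasp1, a microtubule protein, 0.27 (SE 0.07), Svil, supervillin, 0.27 (SE 0.07), Arhgap20 0.27 (SE 0.07), Rtl4 0.25 (SE 0.06) and LOC671917 0.21 (SE 0.05). Osr1 began at -3.83 at W3, the week of the dim HF75 array.

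At single weeks there is 1 array per dose, so the following are differences between 2 arrays with no replicate check. They were taken among probes well above background on both. At W6, an early week with both arrays bright, Pnoc, the precursor of nociceptin, was 7.69 higher in HF75, Slc4a7, a bicarbonate transporter, 5.14 and Ren2, a renin, 5.11, and the lowest were Prm2 (-5.34), Prm1 (-4.76) and Syt10 (-4.73). At W9, Lrrn2 was 6.48, Btg4, an oocyte and testis gene, 5.70 and Upp2, uridine phosphorylase, 5.68 higher, and Lcn5 (-8.71), Mitf, a transcription factor of pigment cells and osteoclasts (-7.88), and Spata19, a sperm mitochondrial protein (-7.66), were lowest. At W15, Igkv8-16, an antibody gene segment, was 5.06, H2-Ea, a class II chain, 3.68 and Cstdc6 3.60 higher, and Defb28, a defensin, -8.18, BC048679 -7.70 and Cndp2, a dipeptidase, -7.61. At W18, Gm12411 was 6.58, Ptpra, a phosphatase, 5.70 and Khdc1a 5.12 higher, and Svs5 (-9.08), Pate4, a seminal vesicle protein (-8.83), and Spata19 (-7.75) were lowest. At the weeks of the dim arrays the leading values were larger. At W3 they were E430016F16Rik (11.86), Defb23 (8.27) and Tas2r109, a taste receptor (8.19), against Myo1e, a myosin (-8.94), Trim55 and Pdpk1. At W12 they were Gsta3, a glutathione transferase (6.59), Retn (6.31) and Agt, angiotensinogen (5.97), against 1700022A21Rik (-11.47), Ucp1 (-10.08) and Trav8d-1, a T cell receptor segment (-9.95).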

How the data were processed

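Total RNA was labelled with Cy3 and hybridised to 1-colour Agilent mouse arrays designed on build mm9. Per the file headers, the deposited intensity values were made with Feature Extraction 10.5.1.1 (the labels name 9.1), which subtracted the background and detrended each array to give the processed signal, without normalising between arrays. The series table deposited by the authors holds log2 ratios to the LFC array of the same week, made in GeneSpring GX per the study's methods. It matched the scanner files (Pearson correlation of HF75 minus HF5 at least 0.994) and was used as an alternative. Its 38 columns all matched a sample.

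Control and outlier spots were left out, and spots of a probe were averaged. Of 40628 probes, 34522 took a current symbol, 28128 through an accession. Probes well above background on at least 3 of 6 arrays of a dose were tested with limma 3.58.1 in R 4.3.3, two-sided, with week as a block, Benjamini-Hochberg adjustment and a threshold of 0.05. Probes without a value at a week were fitted on the others. Saturated spots kept their value. A probe not well above background on any array of a dose is given as an approximate bound. It sets the mean level of the other dose against the lowest level well above background of each array, or the measured level if higher. Arrays were not paired by week for it, and the mean includes arrays where the probe was not well above background. The number of arrays limits the precision. Deviations from the dose means correlated between the arrays of each week (0.194 to 0.744), so weeks were taken as pairs. The labels give the week.

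The 34 gene lists and the members were chosen with earlier results of these data known, and a gene is represented by its tested probe of highest mean level. Named are the 8 probes of smallest p each way, the 6 of largest difference with the same sign at 6 weeks, if well above background on all 12 arrays, the 3 of largest difference per week, the cell type markers, and of each list the 2 members of highest level and the extremes. Other members were named after their values were seen, most for an unadjusted p under 0.05 or the same sign at 6 weeks. Alternatives were quantile normalisation, normexp background correction with offset 50, other filters, weeks left out, array weights, scan day as a block and the methods' t-test. The 12 arrays were on different slides, though HF5 W3 shared its slide with HFC W3, and HF75 W3 with HF20 W3. HF75 and HF5 arrays were scanned on the same day at W9, W12 and W15. The script was tested on simulated data. Svs2 and Hbb-b1, among the fixed markers, were not among the probes tested. Values of a few list members are not reported here.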

Additional observations from a re-analysis of the deposited data

Results flagged for a closer look

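Over the 6 arrays of each dose, the highest or lowest array was set against its nearest neighbour for 76 groups of values, the mean levels of the 34 gene lists and 4 measures of signal. A gap over Dixon's 95% limit was found in 16, where chance gives about 3.8. Of these, 5 fell on HF5 W12, 5 on HF75 W12 and 3 on HF75 W3. The part of the dim signal in the list levels was not tested.

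On HF5 W12 the brown fat list stood at 4.22 (nearest HF5 array -0.92), the fatty acid oxidation list at 3.25 (1.59) and the respiratory chain list at 5.29 (3.75), the log2 75th percentile was 4.69 (8.84), and 40.1% of spots were well above background (65.3%). On HF75 W12 the lipogenesis list stood at 3.11 (1.11), the brown fat list at -0.15 (-1.39), the immediate early list at 1.53 (3.95) and the mural list at 2.01 (2.99), and 14.3% of spots were marked as outliers (0.148%). Brown fat genes thus stood apart from the other weeks of the same dose on both W12 arrays. Arrays without formulation reached the HF75 W12 level, at 0.32 on LFC W12 and -0.002 on HFC W9, while HFC W12 stood at -1.43. LFC W9, HFC W9 and LFC W12 lay beyond HF75 W12 in the lipogenesis list (3.60, 3.32 and 4.39). The same arrays did so in the immediate early list (0.03, 0.36 and 0.12). HFC W12 did not, at 0.50 and 4.39. On HF75 W3 the insulin and glucose list stood at -0.085 (1.15), the log2 75th percentile was 6.47 (9.29), and 57 spots were saturated (555). On bright arrays the extracellular matrix list stood at 3.82 on HF5 W6 (2.69), the mural list at 2.44 on HF5 W9 (3.30), and the seminal vesicle list at 5.43 on HF5 W18 (-3.15).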

How the results depend on the processing

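For the mean difference, limma called 0 probes under every alternative run (smallest adjusted p from 0.440 with array weights to 1.0). The slope, run under the other scalings, filters, weeks left out and HF20 as the low dose, also had 0 (from 0.115 under normexp), with the same 0 for each week left out. The methods' t-test gave 690 at an unadjusted p under 0.05 and 0 after adjustment. Without the replicate block the count was 0, and 735 at an unadjusted p against 2071 with the pairing by week. Other unadjusted counts were 463 (normexp), 1811 (quantile), 477 of 13127 (probes well above background on all 12 arrays), 993 (scan day as a block), 959 (W9, W12 and W15 alone), 1075 (without W9 and W18), 1563 (HF20 as the low dose at W15 and W18) and 1215 (without W18) to 2387 (without W12). The slope had 9909 under normexp and 355 to 1414 with a week left out. The share higher in HF75 was 28.8%, and 39.8% under quantile. The methods' t-test had 348 higher and 342 lower, and W6, W9, W15 and W18 under quantile 1109 higher of 2179. Normexp moved the median of all probes from 0.059 to -0.26 and the probes 2-fold apart to 2704 (W6), 1507 (W9), 20819 (W12), 1548 (W15) and 17417 (W18). At W3 the split was 5995 higher and 8076 lower under quantile, and 15732 and 1929 under normexp. Lists with a median below 0 were 23, 15 under normexp and 18 to 27 with a week left out. The sign of the list median differed under normexp in 12 lists and over W9, W12 and W15 in 10. The sperm median ran from -3.22 to -1.42 over the alternatives, with 3 (without W9 and W18, and over W9, W12 and W15) to 17 (without W12) members at an unadjusted p under 0.05. Brightness differed by -0.41 (without W12) to 1.44 (without W3). Low genes are limited by the dim arrays and bright genes by saturation.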
